A study of Chlorocebus aethiops vervet with 14 samples.

Results

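Astrocyte marker genes were followed in the lateral geniculate nucleus of the vervet monkey, the thalamic relay between the retina and the visual cortex. The set holds 10 genes (GFAP, SLC1A3, SLC1A2, GJB6, ALDH1L1, S100B, GLUL, FGFR3, AGT and SLC4A4) of the 14132 genes that the platform annotation names singly on the Rhesus Macaque Genome Array. The genes were chosen by name as markers of astrocytes, with earlier results of these data known. Counts of calls among them therefore describe the set and are no independent test. Every probe set that carries one of these symbols alone was taken, which gave 19 of the 52766 probe sets outside the controls, and each was kept apart. Of these, 14 passed the filter on dim signal and were tested, with at least 1 probe set of each gene.

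Astrocytes are the glial cells that take up glutamate released at synapses, turn it into glutamine, couple to each other through gap junctions and buffer potassium and pH. In the lateral geniculate nucleus they lie around relay neurons and the terminals that end on them. The magnocellular (M) layers hold large relay cells of the fast, achromatic pathway, and the parvocellular (P) layers hold smaller relay cells of the slower, colour-opponent pathway.

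Tissue came from normal adult male vervets (Chlorocebus aethiops) with no treatment. The arrays fall into 4 groups of 3, each of 3 individual animals: cell bodies of neurons cut out of M (M neurons) or of P (P neurons), and mixed tissue of M (M layers) or of P (P layers). The sources used here do not say whether an animal gave more than 1 of these samples. Each sample was laser-captured under a cresyl violet stain in about 3000 pulses, and its total RNA was amplified in consecutive rounds. A capture of cell bodies is chosen by stain and shape, so glial RNA in it depends on what lay within the laser spot.

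The values are MAS5 signals, which are linear intensities with no unit, read from vervet RNA on rhesus probes. Sequence differences between the species can dim a probe set on all 12 arrays, so a difference in level between probe sets says nothing of transcript amounts. The words brighter and dimmer only tell apart the probe sets of 1 gene by mean signal, and sums of signal over genes are compared only between arrays. Differences are given on the log2(signal + 16) scale with the model's standard error (SE), which understates the change of dim probe sets. A probe set is called where the adjusted p of limma over all 26383 tested probe sets is under 0.05. The 2% trimmed mean of the signal ran from 68.8 to 89.6 on neuron arrays and from 59.6 to 73.7 on layer arrays. Having only 3 arrays per group limits the precision.

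The instrument records place the arrays on 3 fluidics stations. M neurons 1, 2 and 3 and P neuron 1 ran on the first, P neurons 2 and 3 and M layers 1 and 2 on the second, and M layer 3 with P layers 1, 2 and 3 on the last. Within M and within P no station held both captures, so capture and station cannot be told apart inside either layer type. A fit with station as a block was possible only over all 12 arrays. Its difference between M and P rests on P neuron 1 and M layer 3, the only arrays of their group on a station that holds the other layer type of the same capture. Its difference between captures takes the contrast within the second station and removes that M and P difference. The second station alone gives M layers 1 and 2 against P neurons 2 and 3.

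Most tested astrocyte probe sets read higher in layer than in neuron captures. Over M and P together, 8 of the 14 tested probe sets were higher in layers, against 4.59% of all tested probe sets (24.1% were called in either direction), and they cover 7 genes (FGFR3, SLC1A3, SLC1A2, S100B, AGT, GFAP and GLUL). A single astrocyte probe set, the dimmer one of GFAP, was lower, against 19.5% of all tested probe sets. In 4 of the 14 every layer array lay above every neuron array, as in 1.96% of all tested (8.6% lay wholly below). The median difference of the 14 was 0.55, while the median over all tested probe sets was -0.13. In bulk captures, fewer cells of a type and less RNA per cell cannot be told apart.

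**Figure D1:**
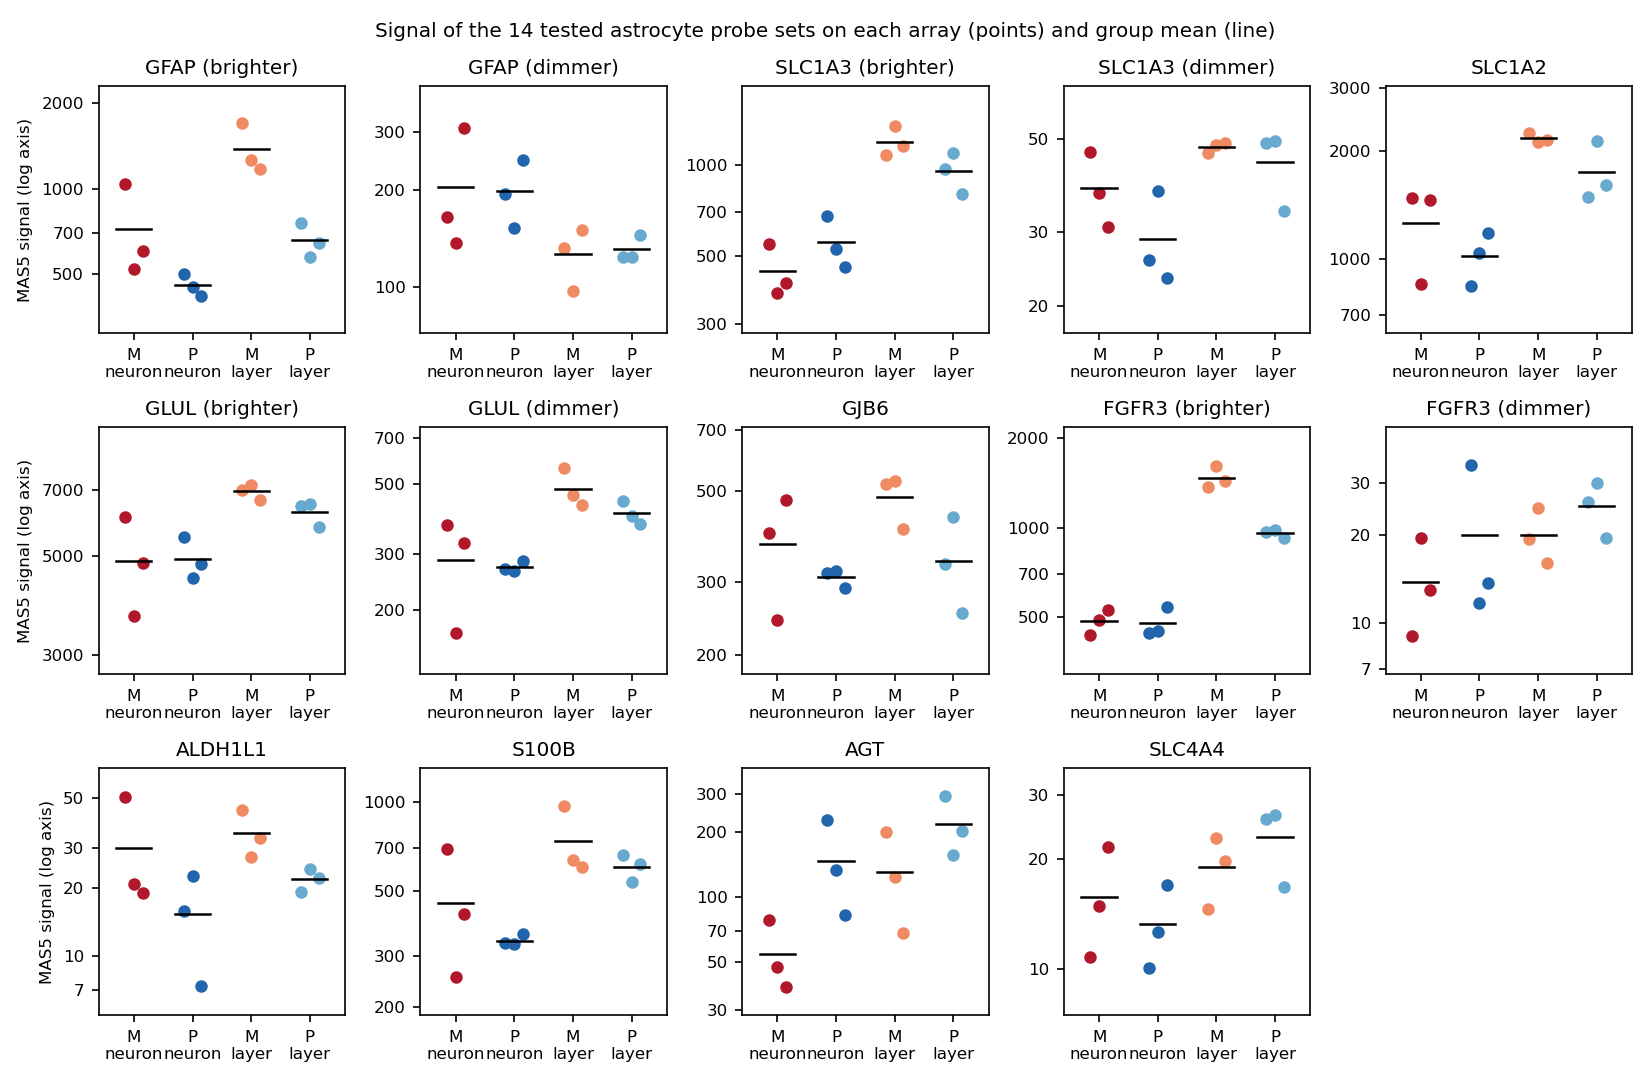
MAS5 signal (log axis, no unit) of each tested astrocyte probe set on each of the 12 arrays, with M and P neuron and layer captures side by side, points for arrays in replicate order and a line for the mean of 3. The brighter FGFR3 probe set lies between 433 and 539.5 in both neuron groups and between 925 and 1618 in both layer groups, with no overlap, while the dimmer GFAP probe set runs the other way.

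GFAP, the intermediate filament protein of astrocytes, has 2 tested probe sets that opposed each other. The brighter one (MmuSTS.4827.1.S1_at) read 1036, 522 and 603 in M neurons, 502, 449.8 and 419.5 in P neurons, 1697, 1259.8 and 1168 in M layers and 757, 575 and 644 in P layers. Every layer array lay above the neuron arrays of its own layer type, but M neuron 1 lay above all 3 P layers. The difference between layers and neurons was 0.73 ± 0.15 (limma adjusted p = 0.0015), or 1.66-fold. It was 0.96 ± 0.22 in M (adjusted p = 0.00719) and 0.51 ± 0.22 in P (adjusted p = 0.145).

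The dimmer GFAP probe set (MmuSTS.1721.1.S1_at) read 165, 137 and 308 in M neurons, 195, 152 and 246 in P neurons, 132, 97.8 and 149.8 in M layers and 124, 123.7 and 145 in P layers. The highest values were those of the third array of each neuron group, and neuron and layer arrays overlapped in M but not in P. The difference was -0.54 ± 0.18 (limma adjusted p = 0.0304), so this probe set was 1.45-fold higher in neurons. The call was lost without any one of 6 arrays (M neuron 3, P neurons 1 and 3, M layer 2, P layers 1 and 2), where the difference ran from -0.54 to -0.38 and the adjusted p from 0.0511 to 0.0894. It was also lost under quantile normalization (-0.28 ± 0.16, adjusted p = 0.241), under scaling to one trimmed mean (-0.30 ± 0.16, adjusted p = 0.197) and with no filter on dim probe sets (adjusted p = 0.0616). Over the 12 arrays the 2 GFAP probe sets correlated at r = -0.47, a description over arrays that share the capture contrast.

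SLC1A3 and SLC1A2 encode the glutamate transporters of the astrocyte membrane. The brighter SLC1A3 probe set (MmuSTS.3835.1.S1_at) read 551, 378 and 410.1 in M neurons, 678, 529 and 461.5 in P neurons, 1081.5, 1349 and 1154 in M layers and 973, 1096 and 803 in P layers. All 6 layer arrays lay above all 6 neuron arrays. The difference was 1.09 ± 0.13 (limma adjusted p = 1.33e-05), or 2.12-fold, and it was 1.40 ± 0.19 in M (adjusted p = 0.000212) and 0.77 ± 0.19 in P (adjusted p = 0.0127). The P call was lost without P neuron 3 (0.65, adjusted p = 0.0733) or P layer 1 (0.76, adjusted p = 0.0583).

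SLC1A2 read 1476, 855 and 1457 in M neurons, 841.5, 1042 and 1187 in P neurons, 2246, 2125 and 2147 in M layers and 1491, 2128 and 1611 in P layers. The layer arrays again lay above all neuron arrays, though P layer 1 exceeded M neuron 1 by little. The difference was 0.79 ± 0.14 (limma adjusted p = 0.000357), or 1.72-fold, with 0.82 ± 0.19 in M (adjusted p = 0.0105) and 0.76 ± 0.19 in P (adjusted p = 0.0175). The P call was lost without P neuron 1 (0.62, adjusted p = 0.0869), P layer 2 (0.60, adjusted p = 0.0681) or P layer 3 (0.80, adjusted p = 0.0515). The dimmer SLC1A3 probe set, with signals from 23.3 to 49.4, differed by 0.34 ± 0.14 and was not called (adjusted p = 0.0903), but it was called under quantile normalization (0.43 ± 0.13, adjusted p = 0.023) and under one trimmed mean (0.52 ± 0.13, adjusted p = 0.01).

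GLUL encodes glutamine synthetase, which turns the glutamate that astrocytes take up into glutamine. The brightest of its 5 probe sets (MmugDNA.41364.1.S1_at) read 6090.5, 3663 and 4822 in M neurons, 5512, 4459.9 and 4779 in P neurons, 7024, 7187 and 6660.4 in M layers and 6449, 6511 and 5803 in P layers. Only M neuron 1 reached into the range of the layer arrays, above P layer 3. The difference was 0.45 ± 0.10 (limma adjusted p = 0.00275), or 1.36-fold. The second tested GLUL probe set (MmugDNA.15517.1.S1_at) spanned 169 to 370.1 on neuron arrays and 373 to 562 on layer arrays, so no arrays overlapped, and differed by 0.65 ± 0.16 (adjusted p = 0.00467). In M both were called (0.55 ± 0.14 and 0.78 ± 0.22, adjusted p = 0.0178 and 0.0303), and in P neither was (0.35 ± 0.14 and 0.53 ± 0.22, adjusted p = 0.126 and 0.140).

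The GLUL calls within M did not hold when certain arrays were left out singly. Both were lost without M neuron 2, the lowest of its group (0.36 with adjusted p = 0.0726 for the brighter and 0.45 with adjusted p = 0.0932 for the dimmer), and both without M layer 1 (adjusted p = 0.0511 and 0.132) or M layer 2 (adjusted p = 0.0576 and 0.0636). The brighter one was also lost without M neuron 3 (adjusted p = 0.0569). Without M neuron 2 the dimmer GFAP probe set was called lower in M (-0.78, adjusted p = 0.0494). With no filter on dim probe sets neither GLUL call in M was kept (adjusted p = 0.0836 and 0.0567). The other 3 GLUL probe sets read between 0.4 and 12.6 on all arrays and were not tested. One of these carries the GLUL symbol under another gene identifier than the rest.

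GJB6 encodes a connexin of astrocyte gap junctions. It read 394, 242 and 475 in M neurons, 315.5, 319.6 and 291 in P neurons, 517.5, 528 and 404 in M layers and 331, 430.4 and 252 in P layers. Layer and neuron arrays overlapped in both layer types, and the difference of 0.25 ± 0.16 was not called (limma adjusted p = 0.283, 95% interval -0.08 to 0.59). Under quantile normalization it was 0.54 ± 0.12 (adjusted p = 0.0044) and under one trimmed mean 0.50 ± 0.13 (adjusted p = 0.00862), both called.

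FGFR3, a receptor for fibroblast growth factors that astrocytes carry, showed the widest gap between captures among the 14 probe sets. The brighter probe set (MmugDNA.36354.1.S1_at) read 433, 489 and 526 in M neurons, 441, 449.6 and 539.5 in P neurons, 1374, 1618 and 1434.5 in M layers and 969.6, 985 and 925 in P layers. Both neuron groups lay at one level, and all layer arrays lay above them. The difference was 1.29 ± 0.11 (limma adjusted p = 4.15e-07), or 2.44-fold. It was 1.58 ± 0.15 in M (adjusted p = 1.97e-05) and 0.99 ± 0.15 in P (adjusted p = 0.000708). The dimmer FGFR3 probe set (MmugDNA.29926.1.S1_at), with signals from 9.1 to 34.6, differed by 0.26 ± 0.17 and was not called (adjusted p = 0.303), a value that reached 0.97 with station as a block.

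S100B, a calcium-binding protein that astrocytes make and release, read 692, 254.5 and 415.5 in M neurons, 331, 329 and 355 in P neurons, 970.3, 638 and 602.5 in M layers and 662, 535 and 615 in P layers. M neuron 1 stood above the other M neurons and within the range of the layers. The difference was 0.78 ± 0.18 (limma adjusted p = 0.00358), or 1.72-fold. In M it was 0.76 ± 0.26 (adjusted p = 0.064) and became 1.11 ± 0.23 without M neuron 1 (adjusted p = 0.0082). Blocked on the replicate number, a pairing inferred from these same arrays and not from the labels, the M difference was called (0.76 ± 0.21, adjusted p = 0.0132). In P it was 0.80 ± 0.26 (adjusted p = 0.051), with no overlap of arrays, and it was called without M neuron 1, M neuron 2 or M layer 1 (adjusted p = 0.0214, 0.0143 and 0.0381), which only changes the shared estimate of the spread.

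AGT encodes angiotensinogen, the precursor of the angiotensin peptides, which astrocytes make in the brain. It read 78.3, 47.5 and 38.6 in M neurons, 227, 134 and 82.6 in P neurons, 199.6, 124 and 68.1 in M layers and 294, 157 and 202 in P layers. The 3 arrays of a group spread over a wide range, and the captures overlapped in M and in P. The difference was 0.78 ± 0.24 (limma adjusted p = 0.0204), or 1.71-fold, and the call was lost without M neuron 3 (0.69), P neuron 3 (0.62), M layer 1 (0.61) or P layer 1 (0.66), with adjusted p from 0.0573 to 0.0673, and with no filter on dim probe sets (adjusted p = 0.0527). In M it was 0.99 ± 0.33 (adjusted p = 0.0639), and blocked on the replicate number it was called at 0.99 ± 0.21 (adjusted p = 0.00188). It was also called in M without P neuron 1, P neuron 3 or M layer 3 (adjusted p = 0.0457, 0.0469 and 0.0155, the last with a difference of 1.33). In P it was 0.57 ± 0.33 (adjusted p = 0.309).

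ALDH1L1, a cytosolic enzyme of folate metabolism, and SLC4A4, a sodium-bicarbonate cotransporter that regulates pH, were dim. ALDH1L1 spanned 7.3 to 50.5 on neuron arrays and 19.2 to 44.4 on layer arrays, and its difference of 0.25 ± 0.18 was not called (limma adjusted p = 0.34). M neuron 1, at 50.5, was its highest array. The tested SLC4A4 probe set (MmuSTS.2812.1.S1_at) lay at 10.1 to 21.6 on neuron arrays and 14.6 to 26.3 on layer arrays, and its difference of 0.28 ± 0.15 was not called (adjusted p = 0.199) except under one trimmed mean (0.42 ± 0.13, adjusted p = 0.0358). Its other 2 probe sets, at 0.3 to 17.3, were not tested.

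**Figure D2:**
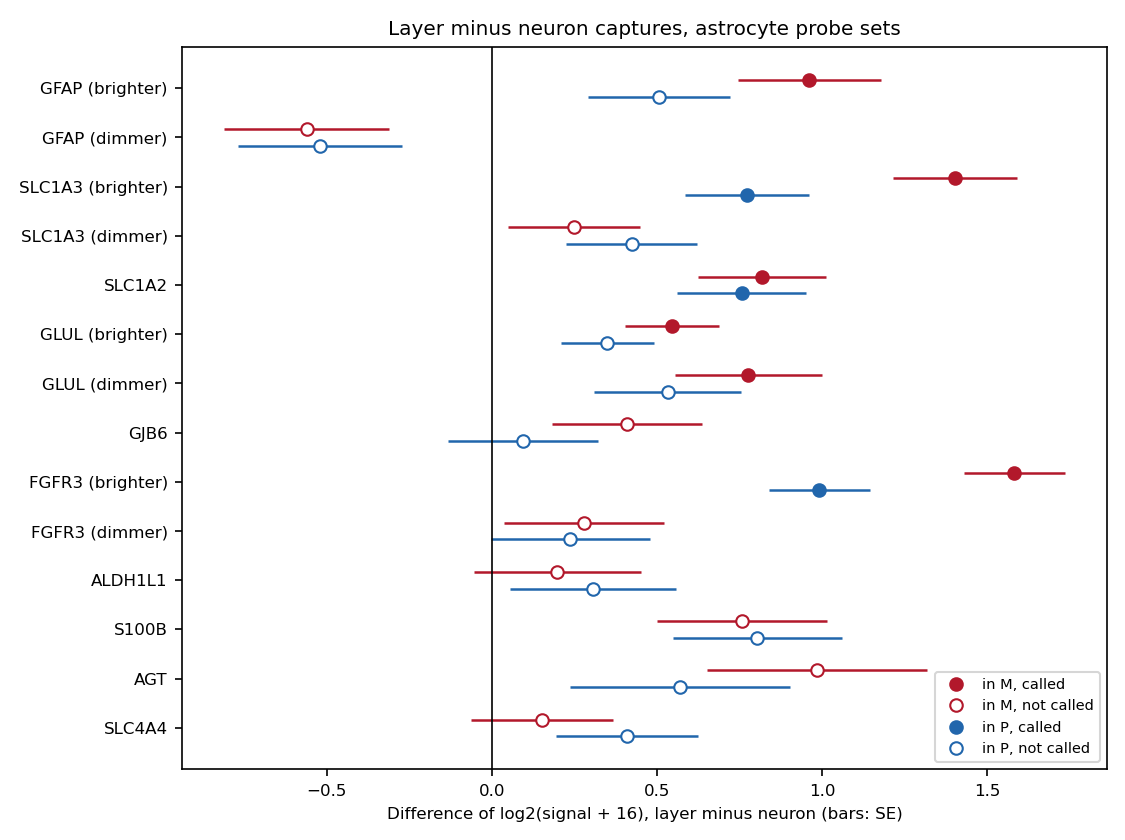
Difference of log2(signal + 16) between layer and neuron captures in M and in P for each tested astrocyte probe set, with bars for the SE and filled points for limma calls. The brighter FGFR3 and SLC1A3 probe sets and SLC1A2 were called in both layer types, and the dimmer GFAP probe set lay below 0 in both, uncalled in each.

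Within M, 6 of the 14 probe sets were called higher in layers (2.86% of all tested), and within P, 3 of 14 (1.41% of all tested, 10.2% in either direction). No astrocyte probe set was called lower within M (7.82% of all tested) or within P (8.76%), with 1 below 0 in each. In M 6 of 14 had all layer arrays above all neuron arrays (7.12% of all tested). In P 7 of 14 did (6.15%), and the dimmer GFAP probe set had all of them below (24.9%). Whether the capture difference itself differed between M and P was tested as an interaction, and 0 of 14 probe sets passed in limma, as did 0% of all tested. At an unadjusted p under 0.05 there were 2 of 14 and 742 of all 26383. These 2 were the brighter FGFR3 (0.59 ± 0.22, unadjusted p = 0.0133, adjusted p = 1) and the brighter SLC1A3 (0.63 ± 0.27, unadjusted p = 0.0281), both with the wider gap in M.

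The direction of the common pattern held under the scalings, while the count moved with the station. On the deposited scale 19.1% of all called probe sets were higher in layers. After quantile normalization that share was 48.1% and the median of all tested probe sets moved from -0.13 to -0.01, and with one trimmed mean the share was 54.7% and the median 0.05. Under these scalings 10 and 11 of the 14 astrocyte probe sets were called, all higher in layers. In M the share of higher calls went from 26.8% to 51.9% and 54.8%, and in P from 13.9% to 48.5% and 53.2%.

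With station as a block, 3 astrocyte probe sets were called over both layer types, while the calls over all probe sets fell from 6355 to 626. They were the brighter FGFR3 (1.22 ± 0.27, limma adjusted p = 0.0245), the brighter SLC1A3 (1.43 ± 0.30, adjusted p = 0.021) and AGT (2.14 ± 0.42, adjusted p = 0.0147). The AGT value differs from 0.52 ± 0.29 within the second station (adjusted p = 0.332, not called) only through P neuron 1 and M layer 3, so it is no separate support for AGT. The brighter GFAP probe set gave 1.08 ± 0.35 (adjusted p = 0.0964) and SLC1A2 0.54 ± 0.31 (adjusted p = 0.351), and the 4 other calls were lost too. Within the second station, M layers 1 and 2 against P neurons 2 and 3 gave 5 calls: the brighter GFAP (1.71), FGFR3 (1.57) and SLC1A3 (1.26) probe sets, S100B (1.17) and SLC1A2 (0.96). That contrast mixes capture with layer type, and its share of calls over all tested probe sets is not given here.

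**Figure D3:**
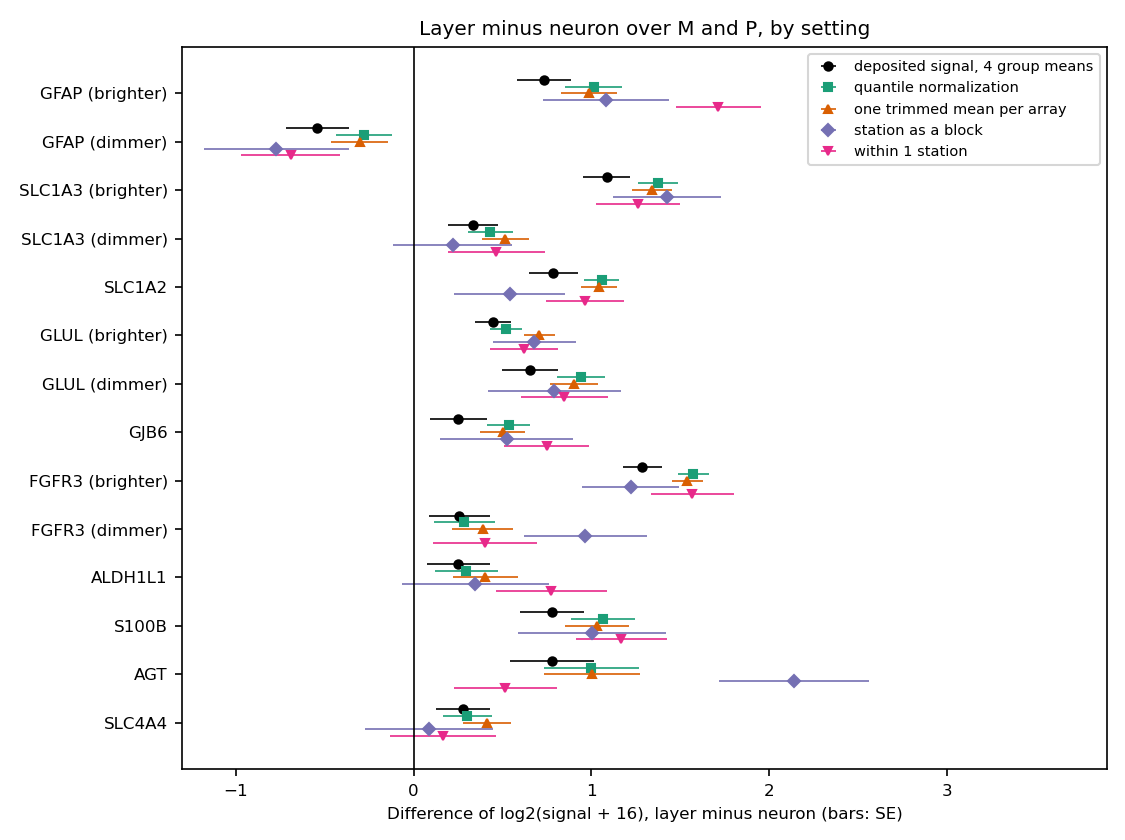
Difference of log2(signal + 16) between layer and neuron captures over M and P for each tested astrocyte probe set, on the deposited scale, under 2 other scalings, blocked on the station and inside the second station alone (bars, SE). Only the dimmer GFAP probe set lies below 0 in every setting drawn, and AGT moves most, from 0.78 to 2.14 with the block.

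Calls for M against P were few among the astrocyte genes. With only 3 arrays per group, a missing call does not show that levels were equal. Over both captures 1 of 14 probe sets was called, the brighter GFAP, higher in M, against 0.425% of all tested probe sets called higher and 0.406% called lower. AGT ran the other way, lower in M on average in neurons and in layers. In neurons alone 0 of 14 were called (0.296% of all tested) and in layers alone 0 of 14 (0.159% of all tested, 0.0606% called lower). At an unadjusted p under 0.05 there were 6 of 14 over both captures, beside 2623 of all 26383. In neurons alone there were 3 of 14 and in layers alone 4 of 14, beside 1971 and 1531 of all 26383. The median difference of the 14 over both captures was 0.16, beside 0.03 for all tested.

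GFAP was higher in M in both captures by the array values of the brighter probe set given above. All 3 M layers, at 1168 to 1697, lay above all 3 P layers, at 575 to 757, and all 3 M neurons, at 522 to 1036, lay above the P neurons, at 419.5 to 502. Group means were 1375 ± 283 in M layers, 720.4 ± 276 in M neurons, 658.5 ± 91.6 in P layers and 457 ± 41.9 in P neurons (SD, n = 3). In that order only the M neurons and P layers, next to each other, overlapped. The difference over both captures was 0.81 ± 0.15 (limma adjusted p = 0.0101), or 1.75-fold.

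In layers the GFAP difference was 1.03 ± 0.22 (limma adjusted p = 0.0674). Blocked on the replicate number, a pairing inferred from these same arrays, it was called (1.03 ± 0.17, adjusted p = 0.00164). It was also called without M neuron 1 or M neuron 2 (adjusted p = 0.0184 and 0.0385), arrays that enter only through the shared spread. In neurons it was 0.58 ± 0.22 (adjusted p = 0.467). With station as a block the difference over both captures was 0.63 ± 0.22 and no longer called (adjusted p = 0.393). That value is the mean of 0.44 within the first station, which sets the single P neuron 1 against the M neurons, and 0.82 within the last, which sets the single M layer 3 against the P layers. The dimmer GFAP probe set differed between M and P by -0.04 ± 0.18 (95% interval -0.40 to 0.33).

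AGT had its lowest group mean in M neurons, 54.8 ± 20.8, followed by M layers at 130.5 ± 66, P neurons at 148 ± 73.1 and P layers at 217.5 ± 69.5 (SD, n = 3). Each group overlapped its neighbour in that order, while all 3 M neurons lay below all 3 P neurons. The difference over both captures was -0.94 ± 0.24 (limma adjusted p = 0.0688), so P was 1.92-fold higher. M was the lower in 6 of 6 pairs of arrays with the same number, but the neuron pairs follow from that separation under any numbering. With that number as a block, a pairing inferred from these same arrays and not from the labels, the difference was called (-0.94 ± 0.15, adjusted p = 0.000243). The block also joins P neurons and P layers, which were not taken as paired. In neurons the AGT difference was -1.15 ± 0.33 (adjusted p = 0.235), and with the block -1.15 ± 0.21 (adjusted p = 0.00277). In layers it was -0.73 ± 0.33 (adjusted p = 0.83).

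The AGT difference over both captures was called without P neuron 3 (-1.10, limma adjusted p = 0.0249) or M layer 1 (-1.11, adjusted p = 0.0228). Within the first station it was -1.82, which sets the single P neuron 1, the highest of its group at 227, against the M neurons. Within the last it was -1.43, which sets the single M layer 3, the lowest of its group at 68.1, against the P layers. The value with station as a block, -1.62, is the mean of these and adds no array to them. Of 7 tested marker genes of oligodendrocytes, 1 was above 0 in M against P over both captures, and none was called. The median was -0.29, and 1 gene was called lower under each of the 2 other scalings. In neurons the median was -0.43. The brightest markers lay near 0 over both captures, MBP at -0.10 and CNP at 0.11. The summed signal of the 7 genes, most of it from MBP and CNP, ran from 9678 to 12743 in M neurons and 11192 to 11998 in P neurons. In layers it ran from 12929 to 13965 in M and from 12946 to 14568 in P. The part of oligodendrocytes in the AGT result was not tested.

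**Figure D4:**
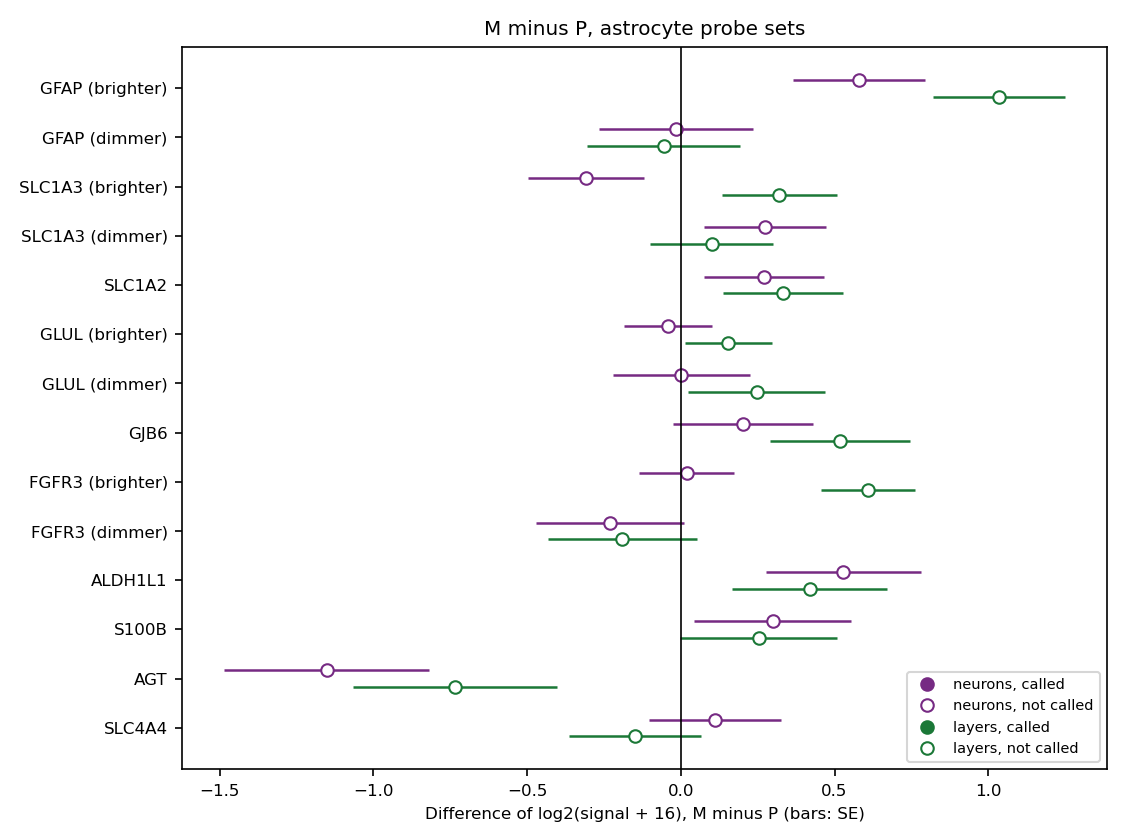
Difference of log2(signal + 16) between M and P in neuron and in layer captures for each tested astrocyte probe set, with bars for the SE and open points for probe sets that limma did not call. The brighter GFAP probe set lies highest (0.58 and 1.03) and AGT lowest (-1.15 and -0.73) in both captures.

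FGFR3 was higher in M among layers only in its array values. The brighter probe set averaged 1475.5 ± 127 in M layers and 960 ± 31.4 in P layers with no overlap, and 483 ± 46.9 in M neurons and 477 ± 54.6 in P neurons with overlap (SD, n = 3). The difference was 0.61 ± 0.15 in layers (limma adjusted p = 0.214) and 0.02 ± 0.15 in neurons (95% interval -0.30 to 0.34). In layers 4 of 14 astrocyte probe sets had all M arrays above all P arrays, as did 8.21% of all tested: the brighter GFAP, FGFR3 and GLUL and ALDH1L1. In neurons it was 1 of 14, the brighter GFAP, against 6.06% of all tested, and AGT alone had all M arrays below all P arrays, against 5.31%. In layers no astrocyte probe set lay wholly below (3.65% of all tested).

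The glutamate transporters, glutamine synthetase, GJB6, ALDH1L1, S100B and SLC4A4 were not called between M and P in any of the 3 comparisons. Over both captures ALDH1L1 differed by 0.47 ± 0.18 (limma adjusted p = 0.325), GJB6 by 0.36 ± 0.16 (adjusted p = 0.457), SLC1A2 by 0.30 ± 0.14 (adjusted p = 0.474) and S100B by 0.28 ± 0.18 (adjusted p = 0.681). The brightest probe sets of SLC1A3 (0.01, 95% interval -0.27 to 0.28) and GLUL (0.06, 95% interval -0.15 to 0.27) had intervals that reach at most 0.28 from 0. The brighter SLC1A3 probe set differed by -0.31 ± 0.19 in neurons and 0.32 ± 0.19 in layers. Tested SLC4A4 differed by -0.02 ± 0.15 over both captures.

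Of a list of 26 other astrocyte genes, 13 had a probe set of their own symbol and 9 were tested. In layers 4 of the 9 were higher, against 4.59% of all tested probe sets: KCNJ10, an inward rectifier potassium channel (0.90 ± 0.14), HEPACAM, a glial adhesion molecule (0.88 ± 0.13), ID4, a transcription regulator (0.78 ± 0.15), and SLC7A11, the cystine-glutamate exchanger (0.63 ± 0.19). Lower in layers were 2 of 9, near the 19.5% of all tested: ALDOC, an aldolase (-0.49 ± 0.10, limma adjusted p = 0.0009), and NDRG2 (-0.37 ± 0.13, adjusted p = 0.0498), the latter not called under either other scaling (-0.08 and -0.11). The other 3 were not called, but VIM, an intermediate filament gene, was called higher under quantile normalization (0.64, adjusted p = 0.000557) and with one trimmed mean (0.61, adjusted p = 0.000817) after 0.37 ± 0.14 (adjusted p = 0.0562). The list's median was 0.37, and 0.64 and 0.61 under these scalings. Between M and P over both captures none of the 9 was called in limma and 8 lay above 0, with a median of 0.17. The smallest p was that of the metallothionein MT3 at 0.32 ± 0.09 (adjusted p = 0.105). MT3 was called under quantile normalization alone (0.27, adjusted p = 0.0412), and SLC7A11 (0.57 ± 0.19, adjusted p = 0.237) alone when blocked on the replicate number (adjusted p = 0.0476).

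The counts for the pathway partners of the markers are to be read against the 4.59% of all tested probe sets called higher in layers and the 19.5% called lower. Of 6 tested genes of glutamate and glutamine handling, none rose in layers and 2 fell: GOT1, the cytosolic aspartate aminotransferase (-1.42 ± 0.14, limma adjusted p = 1.36e-06), and PC, pyruvate carboxylase (-0.61 ± 0.13, adjusted p = 0.00208). Of 14 tested genes of FGF signalling, 3 were higher in layers and 2 lower. FGFR2, a related receptor, differed by 1.41 ± 0.15 (adjusted p = 3.59e-06), SPRY1, an inhibitor of receptor signalling, by 0.65 ± 0.16, and FGF13 by 0.45 ± 0.14. The ligand FGF9 differed by -0.83 ± 0.16 (adjusted p = 0.000888) and the inhibitor SPRY4 by -0.50 ± 0.17, the latter not called under the other scalings.

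Of 6 tested genes of the renin-angiotensin system other than AGT, 3 fell in layers and none rose (4.59% of all tested were called higher and 19.5% lower): the proteases CTSD (-0.61 ± 0.14), MME (-0.81 ± 0.18) and ANPEP (-0.34 ± 0.12, limma adjusted p = 0.0497), ANPEP not under the other scalings. Of 14 tested genes of acid-base handling, 1 was higher in layers, the carbonic anhydrase relative CA10 (0.93 ± 0.17), and 2 were lower, the bicarbonate transporters SLC4A3 (-0.51 ± 0.13) and SLC4A10 (-0.48 ± 0.13), which were not called under the other scalings. Under each of those scalings 4 of the 14 were higher and 0 lower, with SLC4A7, CA4 and SLC16A1 joining CA10. Of 6 tested genes of gap junctions, 1 was higher, the junction scaffold TJP1 (1.25 ± 0.13, adjusted p = 2.08e-06), and GJB1 gave 0.34 ± 0.14 (adjusted p = 0.0723). Between M and P over both captures none of the tested genes of these 5 pathway lists was called. The smallest adjusted p among them were those of MME (0.52 ± 0.18) and FGF13 (0.41 ± 0.14), both with an adjusted p of 0.27.

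Some markers of other cell types moved with the capture too. The counts by cell type are to be read against the 4.59% of all tested probe sets called higher in layers and the 19.5% called lower. In layers 4 of 7 tested oligodendrocyte genes were higher (ENPP2 by 1.02 ± 0.13, UGT8 by 0.97 ± 0.12, MYRF and MAL), as were 4 of 7 endothelial genes (VWF by 0.92 ± 0.19, SLC2A1 by 0.85 ± 0.13, PECAM1 and TEK), 2 of 11 microglial genes (P2RY12 by 0.83 ± 0.17 and ITGAM by 0.48 ± 0.16), 1 of 4 oligodendrocyte precursor genes (VCAN by 1.07 ± 0.20) and 1 of 4 mural genes (NOTCH3 by 0.39 ± 0.14, adjusted p = 0.0492). The NOTCH3 difference was 0.64 in M and 0.14 in P, and blocked on the replicate number it was not called (adjusted p = 0.0522). None of these 5 lists had a gene called lower in limma. The brightest oligodendrocyte genes were not called, MBP at 0.19 ± 0.09 and CNP at -0.02 ± 0.08. MBP was called higher under both other scalings and CNP under one trimmed mean. The endothelial gene CDH5 lay at -0.26 ± 0.20, not called. Of 8 tested neuronal genes none was higher and 3 were lower in layers: ENO2 (-0.91 ± 0.13), STMN3 (-0.73 ± 0.11) and STMN2 (-0.32 ± 0.09), the last not called with one trimmed mean, under which 2 neuronal genes were called higher and 2 lower. With station as a block, 5 genes of all these lists stayed called: FGFR2, VWF and ENPP2 higher in layers, and GOT1 and FGF9 lower.

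The summed signal of the 10 markers, each by its brightest probe set, ran from 6487 to 10812 in M neurons, 7747 to 8874 in P neurons, 13691 to 15169.6 in M layers and 10892 to 12469 in P layers, so layers and neurons did not overlap. GLUL weighs most in these sums, with group means of 4859 in M neurons, 4917 in P neurons, 6957 in M layers and 6254 in P layers. The summed signal of the 9 other tested astrocyte genes did not separate the captures. It ran from 8672 to 10200 in M neurons and 8115 to 9197 in M layers. In P it ran from 7731 to 8837 in neurons and 7173 to 7975 in layers. The summed signal of the 8 neuronal genes ran from 31715 to 31911 in M neurons, 26709 to 31169 in P neurons, 23577 to 29707 in M layers and 23504 to 29342 in P layers. The part of other cell types in the astrocyte differences was not tested. Between M and P the only call in any of these cell type lists was NEFH, a neurofilament subunit, higher in M by 0.34 ± 0.07 (limma adjusted p = 0.0219).

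**Figure D5:**
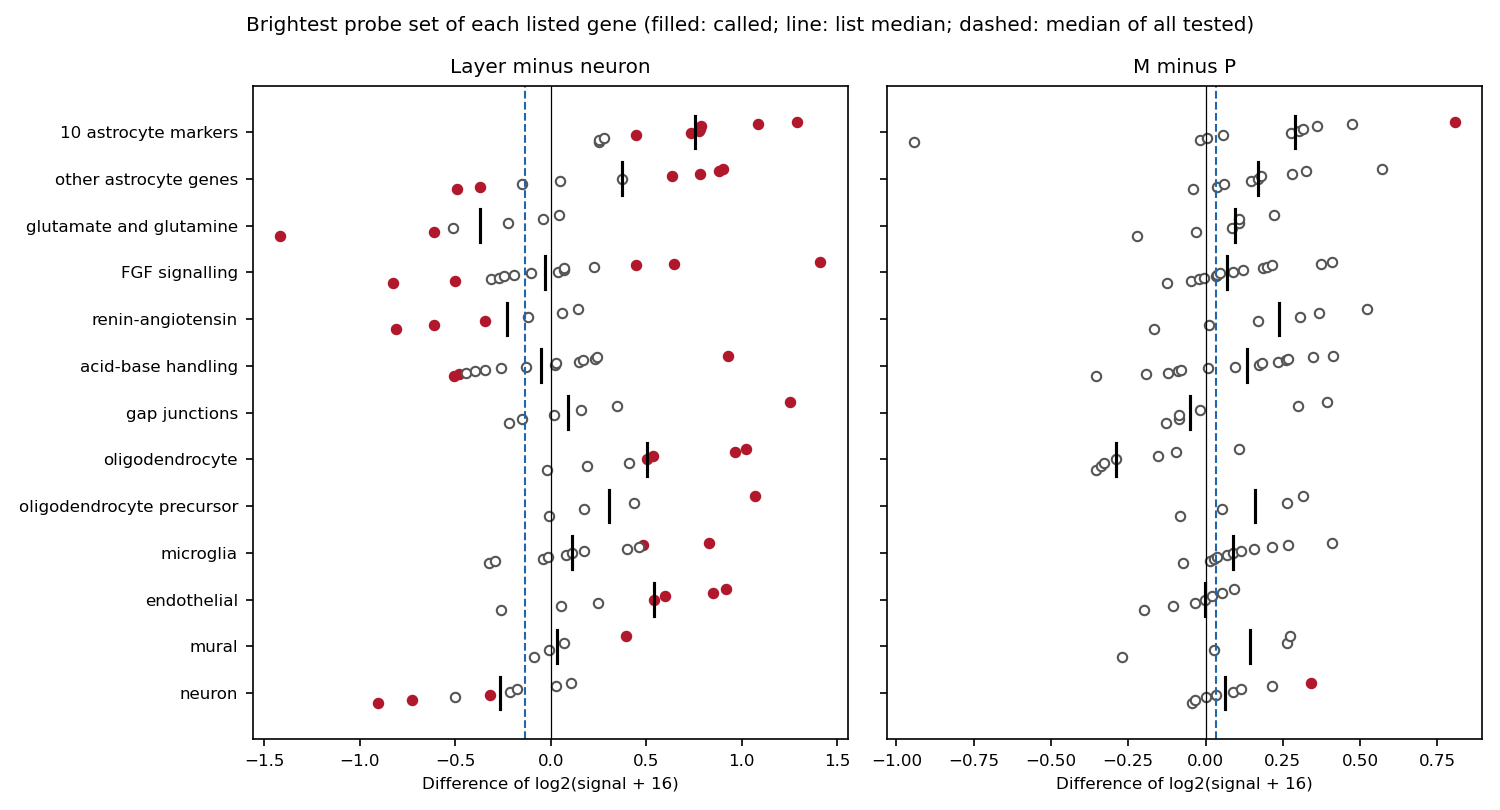
Difference of log2(signal + 16) over both groups for the brightest probe set of each listed gene, by list, for layers against neurons and for M against P; filled points were called, short lines are list medians and the dashed line is the median of all tested probe sets. The 10 astrocyte markers have a median of 0.76 between captures and 0.29 between M and P, and AGT lies at -0.94 between M and P.

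The genes whose signal over the 12 arrays was most like that of the brighter GFAP probe set were LPL (Pearson r = 0.97), SVBP (0.93), PLXNB2 (0.91), F2RL2 (0.91) and HEPH (0.91), among 14767 candidate probe sets. For AGT they were PLLP (0.91), SMURF2 (0.89), ADAMTS4 (0.85), CPB1 (0.85) and WIPF1 (0.85). These values describe 12 arrays that share the capture contrast, the layer type and the stations.

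Within the set, the 2 tested GLUL probe sets correlated at r = 0.94 over the 12 arrays, the dimmer GLUL probe set and S100B at 0.94, and the brighter GLUL and SLC1A3 probe sets at 0.91. The 2 SLC1A3 probe sets correlated at 0.67 and the 2 FGFR3 probe sets at 0.34. Other pairs lay near 0 or below. AGT correlated at 0.11 with the brighter GFAP, 0.14 with SLC1A2 and -0.05 with GJB6, and at most at 0.61, with the dimmer FGFR3. The dimmer FGFR3 and S100B correlated at 0.02. The dimmer GFAP probe set lay below 0 with every other tested member, down to -0.76 with the dimmer SLC1A3.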

How the data were processed

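The authors deposited an intensity per probe set, the linear MAS5 signal of biotin-labelled RNA, per the submitters' processing notes; the sources used here name no version. Of 52865 probe sets, 99 controls were left out. Symbols come from the platform annotation, which can be old: 24956 probe sets carry 1, 361 several and 27449 none.

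Differences on the log2(signal + 16) scale were tested two-sided with limma (version 3.58.1, R version 4.3.3), with 4 group means over all 12 rhesus arrays (8 residual and 11.7 prior degrees of freedom) and an intensity trend. Probe sets entered with a mean at or above the median (lowest 12.65), with the Benjamini-Hochberg adjustment taken over all 26383. All comparisons share arrays and one estimate of the spread. The script was tested on simulated data.

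The members and lists were chosen with earlier results of these data known. Named genes are all member probe sets, up to 4 genes per list with the smallest p between captures and up to 2 between M and P, and the 5 most like GFAP and AGT; the brightest tested probe set stands for a listed gene. NDRG2, SPRY4, VIM, SLC4A7, CA4 and SLC16A1 lie in part outside that rule and were named after their values were seen, to complete counts of calls. Listed genes with no single-symbol probe set were not analysed here. The alternatives were the pseudocount (1 or 64), no filter, quantile normalization, one 2% trimmed mean, no trend, only the groups compared, replicate number or station as a block, single stations and each array left out.

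Deviations from the group means of same-numbered arrays correlated at 0.18 to 0.21 between M and P neurons, 0.14 to 0.26 between M and P layers and 0.14 to 0.19 between M neurons and M layers, so the numbers were taken to pair these groups; this comes from the data and not from the labels. Between P neurons and P layers they correlated at 0.10 to 0.16 with the lowest at 0.0997, and those groups were not taken as paired. Between P neurons and M layers they correlated at 0.15 to 0.21, within the range of the paired groups, and between M neurons and P layers at 0.04 to 0.11.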

Additional observations from a re-analysis of the deposited data

How the results depend on the processing

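Of 14 tested probe sets, layers against neurons gave 9 calls over both layer types (7 to 9 with 1 array left out), 7 with no filter on dim probe sets (the dimmer GFAP and AGT were lost), 3 with station as a block and 5 within the second station. In M it gave 6 (4 to 7 with 1 array left out), 4 with no filter (both GLUL calls were lost) and 1 with station as a block. In P it gave 3 (2 to 5), 7 under quantile normalization, 8 with one trimmed mean, 6 with only the groups compared and 0 with station as a block; the 5 came without M neuron 2. M against P gave 1 call over both captures (1 to 2 with 1 array left out) and 2 with the replicate block. In neurons it gave 0 (0 to 0), 1 with the replicate block and 1 within the first station, which is AGT against the single P neuron 1 and so no test of the group. In layers it gave 0 (0 to 1), 1 with the replicate block and 1 with only the groups compared. The interaction gave 0 in every setting run. The replicate block, not paired by the data in P, gave 4 calls there and 8 in M, and 9 over both. Over all tested probe sets, calls between M and P over both captures were 219, and 511 under quantile normalization, 467 with one trimmed mean and 473 with the replicate block. The share called higher in M layers over P layers went from 61.9% to 50.7% and 46.9% under these scalings. The cause of these moves was not tested. The shares of all tested probe sets given with counts of calls are for the deposited scale, not for the other settings.

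Signs turned only for differences that were not called. With station as a block, SLC4A4 between captures in M went from 0.15 to -0.10, and between M and P over both captures the brighter GLUL probe set went to -0.060, the dimmer GFAP to 0.080, SLC4A4 to 0.079 and the brighter SLC1A3 to -0.16. The last was also -0.055 under quantile normalization and -0.037 with one trimmed mean. Between M and P neurons the dimmer GLUL probe set was -0.0031 with a pseudocount of 1 and -0.0036 with one trimmed mean. Between M and P layers the dimmer GFAP probe set was 0.18 with station as a block and 0.18 within the last station. With 1 array left out, GJB6 between captures in P ran from -0.089 to 0.28. Between M and P over both captures the brighter GLUL ran from -0.033 to 0.15, the dimmer GFAP from -0.20 to 0.075, SLC4A4 from -0.082 to 0.040 and the brighter SLC1A3 from -0.072 to 0.080. In neurons the dimmer GLUL ran from -0.20 to 0.33, the dimmer FGFR3 from -0.39 to 0.041, the brighter FGFR3 from -0.044 to 0.11, the brighter GLUL from -0.22 to 0.15, the dimmer GFAP from -0.34 to 0.21, S100B from -0.051 to 0.64 and SLC4A4 from -0.017 to 0.23. In layers the dimmer SLC1A3 ran from -0.031 to 0.17 and the dimmer GFAP from -0.17 to 0.10. The cause was not tested.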

Other observations

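A pair of human HG-U133 Plus 2.0 arrays of the same study enters no comparison, because the array titles name M layers while the source names neuronal cell bodies. The values are vervet RNA on human probes, on a scale of its own, with median signals of 11.3 and 9.78. The brightest GLUL probe set read 5502 and 2729, that of SLC1A2 2458 and 1583, and that of SLC4A4 832 and 495. Those of GFAP read 101 and 65.8, of SLC1A3 164 and 79.2 and of AGT 85.3 and 52.4. S100B read 37.8 and 6.50.

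On the rhesus arrays, M neuron 1 was the highest array of its group in 9 of the 14 astrocyte probe sets and in 39.4% of all tested. P layer 2 was the highest of its group in 9 of 14 and in 56.1% of all tested.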
